A study of Homo sapiens with 6 samples.

Results

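TGF-β and BMP signalling genes were described as 55 members, named from the pathway with no peak value in the rule, out of 20033 protein-coding genes annotated in GENCODE. A member was counted as having a peak when at least 1 bp of a peak lay in its gene body or in the 5 kb upstream of its transcription start site (TSS), and this stretch is called its locus. The members fell into 14 roles, from ligands and receptors to SMAD proteins, their regulators and their target genes. They included SMAD2, and also SMAD6, BMP7 and SMURF2, which the study took up in connection with the RNA-binding protein hnRNPK. In at least 1 of the 4 peak lists, 23 members (41.8%) had a peak, and 32 had none. The share was 34.8% over all protein-coding genes and 42.9% over protein-coding genes of similar locus length.

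TGF-β, activins, nodal and BMPs are secreted dimers that bring type I and type II receptor kinases together on the cell surface. The activated type I receptor phosphorylates a receptor-activated SMAD, which joins SMAD4, enters the nucleus and binds DNA at target genes such as the ID family. The pathway restrains the growth of colonic epithelium and is often disrupted in colorectal cancer, and HCT116 cells are known for inactivating mutations of the type II receptor gene TGFBR2.

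The data came from ChIRP-seq (chromatin isolation by RNA purification, then sequencing), in which biotinylated antisense DNA probes pull an RNA out of crosslinked, sheared chromatin together with the DNA near it. The RNA was CRLM1, a long noncoding RNA annotated as LINC01767, and the cells were HCT116, an established line from a human colorectal carcinoma. There were 6 libraries in 3 groups of 2 replicates, namely pull-down with CRLM1 probes (CRLM1_IP), a negative control pulled down with probes to the bacterial gene LacZ (LacZ), and genomic DNA of the same line labelled as control (Input). All 3 groups shared this 1 cell line, the labels give no other treatment, and nothing says whether the replicates came from separate cultures. Each CRLM1_IP replicate was represented by a list of peaks called against Input and a list called against LacZ of the same replicate number, so the lists of one replicate share a pull-down library. On chromosomes 1 to 22, X and Y, the Input and LacZ lists of replicate 1 held 9331 and 10310 peaks, and those of replicate 2 held 16777 and 363. Values for the 4 lists are given below in this order, and a list is named by its control. The lists carry no read counts, so the depth behind each peak is unknown, and no test was run on counts of members.

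The sequence of 1 member peak is shown here, because it had the highest score of the members in replicate 1 against Input and was called at the same coordinates against LacZ. Its score was 85.5 against Input, in the top 5.2% of that list, and 58.6 against LacZ, in the top 47.4%. It lies in intron 3 of LTBP1, whose product holds latent TGF-β in the matrix. It is GRCh38 reference sequence, forward strand, 5′ to 3′, and covers the central 300 bases of the peak. Capitals would mark any of the 4 short motifs searched below, on either strand, and this peak, with a GC content of 29.2%, held none of them.
LTBP1, both lists of replicate 1, chr2:33094144-33094443: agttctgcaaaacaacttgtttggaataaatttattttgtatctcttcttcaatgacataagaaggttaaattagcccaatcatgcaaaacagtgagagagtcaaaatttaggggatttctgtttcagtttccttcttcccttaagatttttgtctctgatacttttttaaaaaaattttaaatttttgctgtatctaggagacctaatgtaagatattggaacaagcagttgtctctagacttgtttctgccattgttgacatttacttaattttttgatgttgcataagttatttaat

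The shares of members with a peak were close to those of genes of similar length in each list. In replicate 1 against Input, 8 members (14.5%) had a peak, beside 13.1% of all protein-coding genes and 16.6% of genes of similar length. The last value is the mean, over members, of the share called among the 200 other protein-coding genes nearest in locus length. Against LacZ in replicate 1, 11 members (20.0%) had a peak, beside 20.2% of all protein-coding genes and 24.4% of genes of similar length. In replicate 2 against Input, 15 members (27.3%) had a peak, beside 22.2% and 27.8%. Against LacZ in replicate 2, TGIF1 was the 1 member with a peak (1.82%), beside 1.02% and 1.24%. Length-matched shares correspond to 9.11, 13.4, 15.3 and 0.68 members in the same order of lists. The 8 and 15 members called against Input in replicates 1 and 2 went with lists of 9331 and 16777 peaks. Their difference therefore does not measure the spread between replicates alone.

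**Figure D1:**
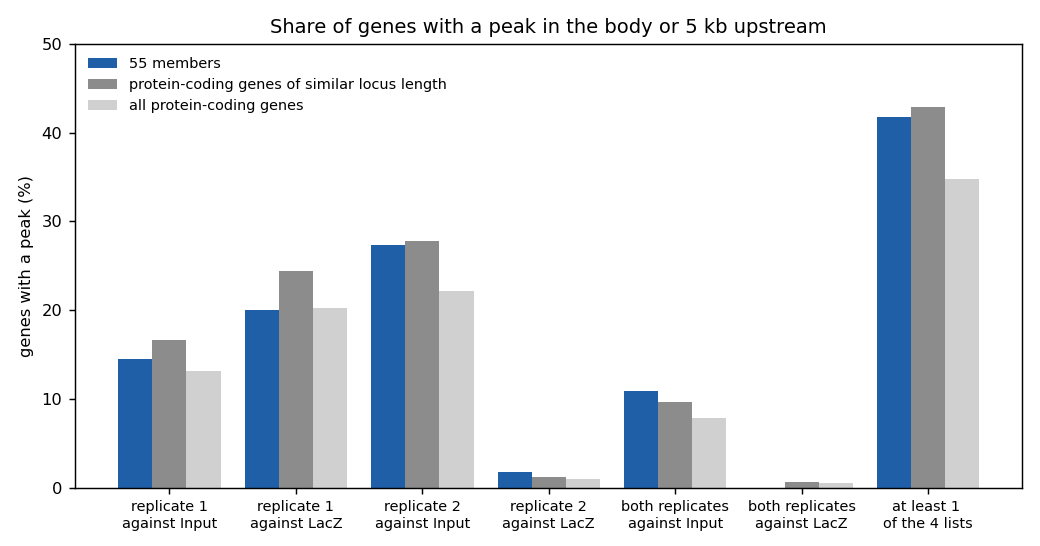
Share of genes with a peak in the gene body or 5 kb upstream (percent, vertical axis) for the 55 members, for protein-coding genes of similar locus length and for all protein-coding genes, by list or combination of lists. The member bar is highest for at least 1 of the 4 lists, at 41.8%, next to 42.9% for genes of similar length, and it is at 0 for both replicates against LacZ.

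Peak density was compared next. Member loci span 4.51 Mb and held 14, 18, 24 and 1 peaks in the 4 lists. This gave 3.1, 3.99, 5.32 and 0.222 peaks per Mb. Over all protein-coding loci the density was 3.02, 3.95, 5.61 and 0.145 peaks per Mb. In the 1 Mb on each side of the member loci it was 2.8, 3.85, 5.48 and 0.164 peaks per Mb. The single TGIF1 peak made up the whole of the member value against LacZ in replicate 2.

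Locus length went with having a peak. The median locus of the 23 members with a peak was 107 kb, and that of the 32 members without was 25.9 kb. Of the 17 members with a locus over 100 kb, 13 had a peak (76.5%, beside 80.5% of protein-coding genes of that size). Of the 26 members between 20 and 100 kb, 9 had a peak (34.6%, beside 35.3%). Of the 12 members under 20 kb, 1 had a peak (8.33%, beside 9.05%), and it was ID1, a target gene of BMP signalling with a locus of 6.23 kb. The 4 members over 100 kb without a peak were BMP6 (161 kb), SMAD2 (127 kb), BMP5 (127 kb) and BMP7 (103 kb).

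**Figure D2:**
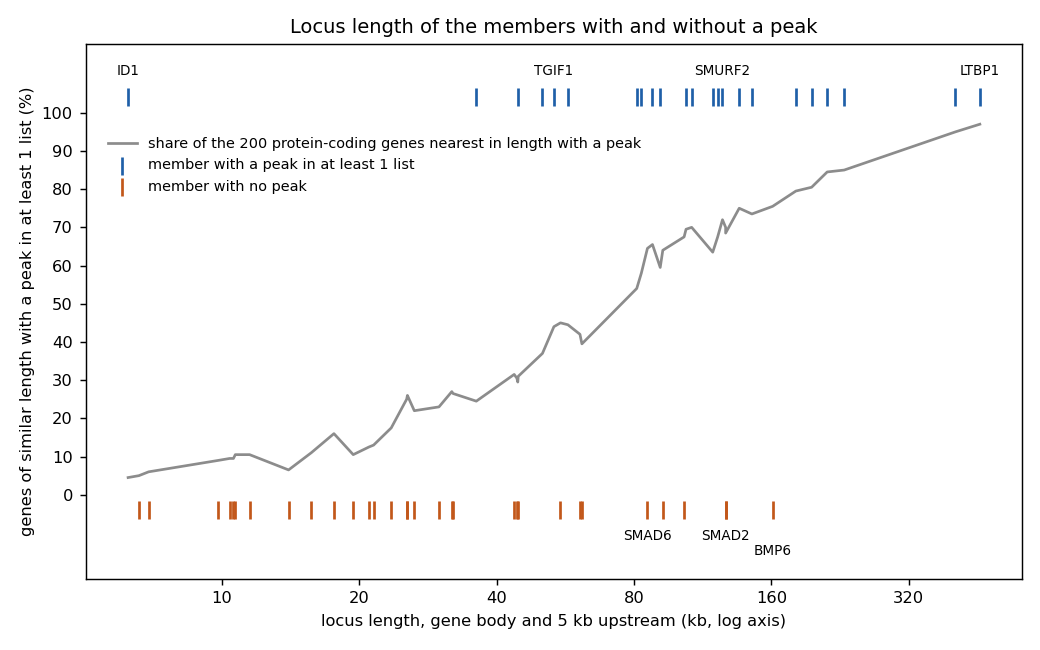
Locus length of each member (kb, log axis), with members that had a peak in at least 1 list as ticks above and members without as ticks below, and a line for the share of the 200 protein-coding genes nearest in length that had a peak (percent). The line climbs with length, and the ticks above crowd to the right, with a median of 107 kb against 25.9 kb for those below.

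Among the receptor-activated SMADs, which carry the signal to the nucleus, 3 of 5 had a peak, beside 2.99 from genes of similar length, and each was called in 1 list. SMAD1, which transduces BMP signals, had a peak with a score of 55.9 in replicate 2 against Input, in intron 2. SMAD9, another BMP-responsive SMAD, had a peak with a score of 57.3 in the same list, in intron 1 and 2.89 kb downstream of its TSS. SMAD3, which transduces TGF-β and activin signals, had a peak with a score of 52.5 in replicate 1 against LacZ, in intron 1. The score is the value the peak caller gave, it starts at about 50 in every list, and it is read here only within a list.

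SMAD2, the close partner of SMAD3, was without a peak in the 4 lists, while 70.0% of the 200 genes nearest to it in length had one in at least 1 list. The study itself counted SMAD2 among the genes bound by CRLM1. Its peaks were called with both repetitions of a group and without those overlapping LacZ peaks, a peak set unlike the lists used here. Its nearest peak lay 4.8 kb beyond the upstream edge of its locus, at chr18:47940946-47941192, with a score of 51.7 in replicate 1 against Input. In the LacZ list of replicate 1 the nearest peak was 291 kb away, and in replicate 2 it was 58.3 kb (Input) and 1590 kb (LacZ) away. SMAD5 also had no peak. SMAD4, the common partner of all receptor-activated SMADs, had none either, and the nearest peak was 108 kb or more from its locus in each list.

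The inhibitory SMADs block receptors and receptor-activated SMADs. SMAD7 had a peak with a score of 69.2 in replicate 1 against LacZ, and it lay upstream, 3.08 kb from the TSS. SMAD6 (chr15:66702236-66782849) had no peak, and the nearest was 31.2 kb from its locus in replicate 2 against Input and 144 kb or more in the other lists.

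The 5 kb limit set a few of these counts. The SMAD7 peak was the single member peak with its midpoint between the limit and the annotated body. Just beyond the upstream limit lay the SMAD2 peak, a peak 3.1 kb past the locus of ID4 with a score of 60.6 (replicate 1 against Input) and a peak 2.8 kb past the locus of SKIL with a score of 51.0 (replicate 2 against Input). Downstream, peaks lay 4.77 kb past BMP5 (replicate 1 against Input, score 56.8) and 2.2 kb past BMPR1B (replicate 1 against LacZ, score 59.1).

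Of the 6 TGF-β, activin and nodal ligand genes, TGFB1 and TGFB2 had a peak, where shares for genes of similar length add up to 1.91. The TGFB1 peak had a score of 55.5 in replicate 2 against Input, and its midpoint was in intron 2 while its edge reached exon 2. TGFB3, INHBA, INHBB and NODAL had none. None of the 9 BMP and GDF ligand genes (BMP2, BMP3, BMP4, BMP5, BMP6, BMP7, GDF5, GDF6 and GDF15) had a peak in any list, where shares for genes of similar length add up to 3.11. BMP7 (chr20:57168753-57266641), a BMP ligand of epithelia and kidney, lay 18.1 kb from the nearest peak of the LacZ list of replicate 1 and 37.3 kb from that of the Input list of replicate 2. The Input list of replicate 1 had its nearest peak 752 kb away, and the LacZ list of replicate 2 had its own 6220 kb away.

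**Figure D3:**
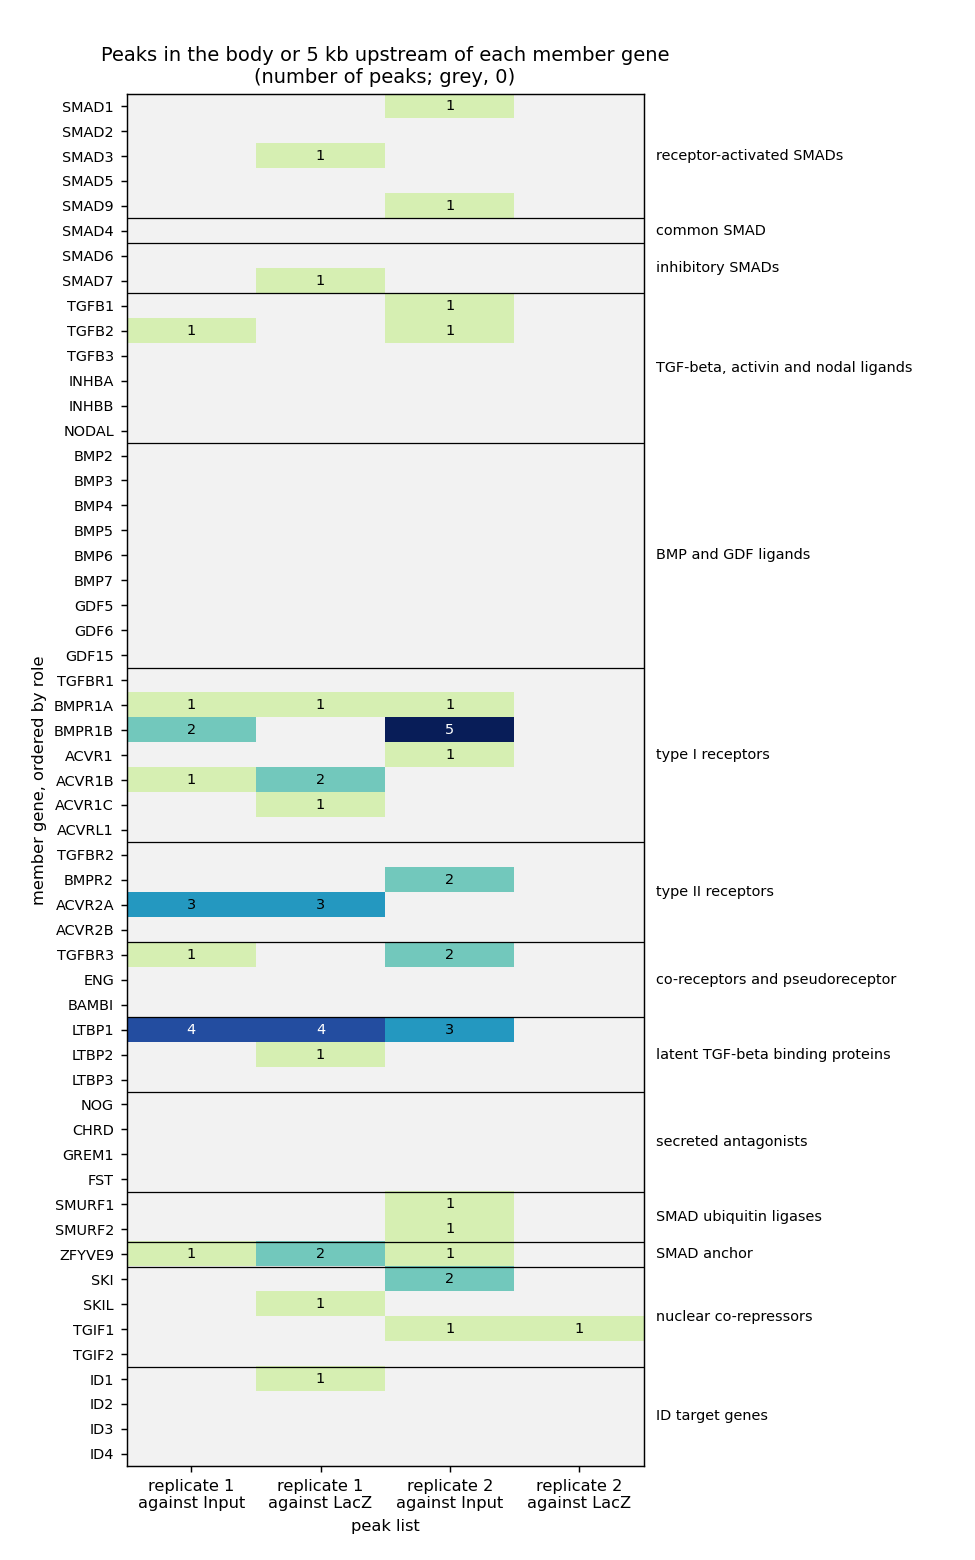
Number of peaks in the body or 5 kb upstream of each of the 55 members (vertical axis, ordered by role) in each of the 4 peak lists (horizontal axis), with grey for 0. LTBP1 with 4, 4 and 3 peaks, BMPR1B with 2 and 5 and ACVR2A with 3 and 3 hold the most, the BMP and GDF ligands and the secreted antagonists are grey throughout, and TGIF1 has the 1 entry against LacZ in replicate 2.

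The counts of receptor genes were close to those of genes of similar length. Of the 7 type I receptor genes 5 had a peak (4.13 from genes of similar length), and of the 4 type II receptor genes 2 had one (2.35). BMPR1A, a BMP receptor, had 1 peak in each of 3 lists at separate sites, with scores of 54.8 (Input) and 50.3 (LacZ) in replicate 1 and 52.5 (Input) in replicate 2. BMPR1B, its close relative, had 2 peaks in replicate 1 and 5 in replicate 2, all against Input and all in introns 1 to 4. ACVR1B, the main activin type I receptor, had 1 peak in replicate 1 against Input and 2 against LacZ. Its peak at chr12:51990157-51990849, in intron 7, was called against both controls, with a score of 61.6 against Input and 95.8 against LacZ. The other ACVR1B peak, at chr12:51979363-51979768 in intron 3, had a score of 71.4 and was called against LacZ alone.

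ACVR1 (score 68.1, replicate 2 against Input) and ACVR1C (score 56.0, replicate 1 against LacZ), type I receptors for BMPs and for activin or nodal, had 1 peak each. TGFBR1 and ACVRL1 had none. Among type II receptors, ACVR2A, which binds activins, had 3 peaks against each control in replicate 1 and none in replicate 2. BMPR2, the main BMP type II receptor, had 2 peaks in replicate 2 against Input, with scores of 65.3 and 51.4. TGFBR2 and ACVR2B had none. TGFBR3 (betaglycan), a co-receptor that presents TGF-β2, had 1 peak in replicate 1 and 2 in replicate 2, all against Input. The co-receptor ENG and the decoy receptor BAMBI had none.

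LTBP1 had the most peaks of any member. It has the longest member locus (458 kb) and held 4 peaks against each control in replicate 1 and 3 against Input in replicate 2. Its 4 replicate 1 peaks were at the same coordinates against both controls. LTBP2, a related matrix protein, had 1 peak in replicate 1 against LacZ with a score of 54.2, and LTBP3 had none. None of the 4 secreted antagonists, NOG, CHRD, GREM1 and FST, which trap BMPs or activins outside the cell, had a peak. Their loci are short, from 6.91 kb (NOG) to 32.1 kb (GREM1), and genes of similar length add up to 0.54.

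Both SMAD ubiquitin ligases, which mark SMADs and receptors for degradation, had 1 peak in replicate 2 against Input and none in the other lists. Of genes of similar length, 43.0% (SMURF1) and 45.5% (SMURF2) had a peak in that list. The SMURF1 peak had a score of 57.4 and lay in intron 1. The SMURF2 peak was at chr17:64583331-64583953 with a score of 52.9, which ranked 13054 of 16777 peaks in the list. Its midpoint was in intron 6, and the peak also touched exon 7. ZFYVE9 (SARA), which anchors SMAD2 and SMAD3 near the receptor, had peaks in 3 lists at 4 separate sites. The last of these sites, called against LacZ in replicate 1 with a score of 65.5, spanned the 3′ end of ZFYVE9 and lay also in the body of CC2D1B, so that it could not be assigned to one of them. Peaks of TGFB1, TGFB2, ACVR2A and ID1 likewise lay in, or in the 5 kb upstream of, another annotated gene, such as TMEM91 for TGFB1 and MIR3193 for ID1.

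Of the 4 nuclear co-repressors, SKI, SKIL and TGIF1 had a peak and TGIF2 had none, beside 1.65 from genes of similar length. SKI, which holds SMAD complexes inactive, had 2 peaks in replicate 2 against Input with scores of 61.8 and 56.2, both in intron 1. SKIL, its relative, had 1 in replicate 1 against LacZ with a score of 56.0. The TGIF1 peak at chr18:3422022-3422385 had a score of 96.9 against Input, the highest member score of that list, and 50.6 against LacZ at the same coordinates. It lay 28.0 kb upstream of the canonical TSS, within the annotated gene body. Of the ID genes, which encode inhibitors of differentiation induced by BMPs, ID1 had a peak in replicate 1 against LacZ with a score of 67.6. It overlapped the first exon, with its midpoint 0.143 kb from the TSS. ID2, ID3 and ID4 had none.

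Against Input, 6 members (10.9%) had a peak in both replicates, namely TGFB2, BMPR1A, BMPR1B, TGFBR3, LTBP1 and ZFYVE9. The share was 7.9% over all protein-coding genes, and genes of similar length gave 9.69%, or 5.33 members. These 6 made up 75.0% of the members called in replicate 1 and 40.0% of those called in replicate 2, beside 60.2% and 35.6% over protein-coding genes. All 6 have loci over 100 kb, a class in which 35.3% of members and 33.6% of protein-coding genes were called in both replicates. Against LacZ, 0 members had a peak in both replicates, beside 0.559% of protein-coding genes and 0.375 members from genes of similar length.

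No member peak recurred at the same site. Of 57 calls in member genes, 0 overlapped a peak of the other replicate under the same control by at least 1 bp, where the share over all peaks was 1.73, 0.0582, 0.936 and 1.65% in the 4 lists. The nearest pair was in TGFB2, where chr1:218437039-218437634 (score 65.8, replicate 1) and chr1:218438987-218439307 (score 50.5, replicate 2) lay 1.35 kb apart. The replicate 1 peak had its midpoint in intron 5 and covered part of exon 6, and the replicate 2 peak lay in intron 6. In the other 5 genes the nearest pair was 30.4 kb apart (ZFYVE9), 35.8 kb (BMPR1B), 38.7 kb (LTBP1), 66.4 kb (BMPR1A) and 121 kb (TGFBR3).

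In ZFYVE9, whose product recruits SMADs to receptors, the peaks of these lists were at chr1:52261054-52261324 (score 55.1, replicate 1) and chr1:52291754-52292184 (score 57.4, replicate 2), in introns 4 and 10. In BMPR1A they were at chr10:86832502-86832864 (score 54.8) and chr10:86765845-86766123 (score 52.5), both in intron 1. In TGFBR3 the replicate 1 peak, chr1:91893742-91894065 (score 59.8), lay 7.75 kb upstream of the canonical TSS within the annotated body. The replicate 2 peaks of TGFBR3 were at chr1:91772766-91773180 (score 55.8, intron 3) and chr1:91704865-91705138 (score 64.8, intron 14). The BMPR1A pair thus shared an intron, and the ZFYVE9 pair did not.

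BMPR1B had replicate 1 peaks at chr4:94928943-94929424 (score 56.3) and chr4:95067233-95067634 (score 50.4). Its replicate 2 peaks were at chr4:94770773-94771045 (59.2), chr4:94855786-94856146 (52.2), chr4:94892717-94893112 (51.2), chr4:95015019-95015408 (55.5) and chr4:95113918-95114416 (50.9), with the scores in parentheses. Introns 2 and 3 held peaks of both replicates, and none of the 7 peaks scored above 60. LTBP1 had replicate 1 peaks at chr2:33094105-33094481 (score 85.5), chr2:33100330-33100682 (56.0), chr2:33302783-33303024 (60.2) and chr2:33306455-33306873 (63.3). They formed a pair in intron 3 and a pair in intron 22. In the same order, their scores against LacZ were 58.56, 50.63, 62.0 and 70.15. Its replicate 2 peaks were at chr2:33002212-33002525 (58.6, intron 2), chr2:33180215-33180522 (74.6, intron 5) and chr2:33263773-33264051 (64.7, intron 15).

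**Figure D4:**
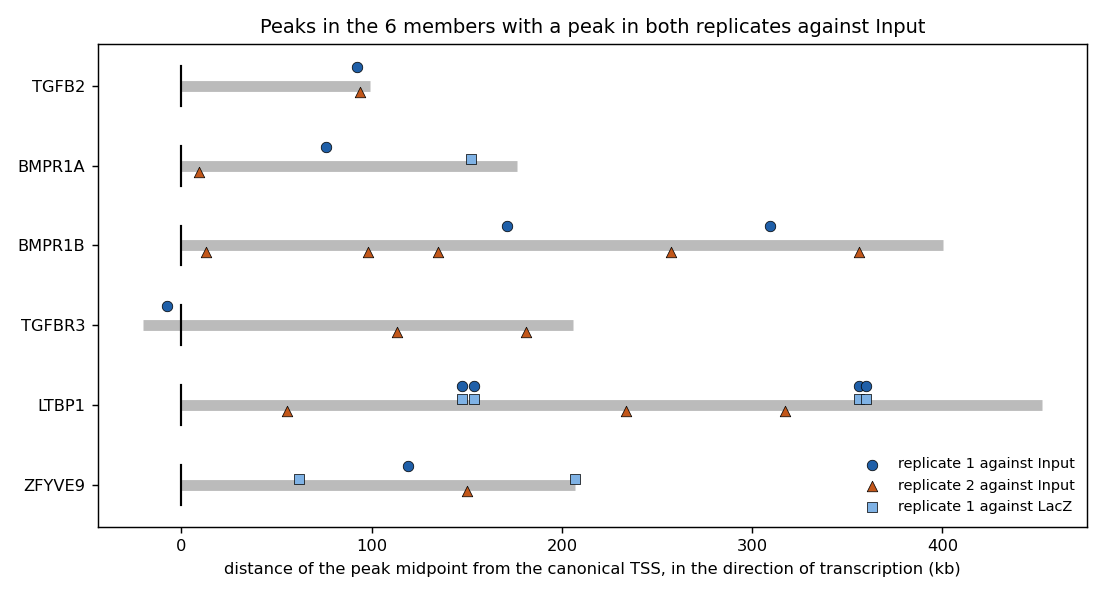
Distance of each peak midpoint from the canonical TSS (kb, in the direction of transcription) in the 6 members with a peak in both replicates against Input, with the annotated gene body as a grey bar, the TSS as a black line and the list of each peak by symbol. Circles and triangles, the replicates against Input, meet closely in TGFB2 (1.35 kb) and are 30.4 to 121 kb apart elsewhere.

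The median distance from a member peak to the nearest peak of the other replicate was 62.5 and 97.8 kb against Input in replicates 1 and 2, beside 46.0 and 91.1 kb over all peaks. Against LacZ it was 2690 kb from replicate 1 to replicate 2, where the other list has 363 peaks, and 51.3 kb for the TGIF1 peak. Over all peaks these distances were 2520 and 62.8 kb.

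The lists of one replicate were compared between controls. In replicate 1, 5 members (9.09%) were called against both controls (BMPR1A, ACVR1B, ACVR2A, LTBP1 and ZFYVE9), beside 9.56% of protein-coding genes and 11.6% of genes of similar length. Identical coordinates against both controls were found for 7 of 14 member peaks against Input (50.0%) and 7 of 18 against LacZ (38.9%), beside 50.3 and 45.6% over all peaks. They were 1 peak of ACVR1B, 2 of ACVR2A and 4 of LTBP1. TGFB2, BMPR1B and TGFBR3 were called against Input alone in replicate 1, and SMAD3, SMAD7, ACVR1C, LTBP2, SKIL and ID1 against LacZ alone. In replicate 2, 1 of 24 member peaks against Input (4.17%, beside 2.05%) was also called against LacZ, the TGIF1 peak.

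The 57 calls made 49 distinct sites, of which 44 (89.8%) had their midpoint in an intron of the canonical transcript, 13 of them in the first intron. Canonical introns make up 83.5% of the member loci. There was 1 site with its midpoint in a coding exon (ID1) and 1 upstream (SMAD7). The other 3 were outside the canonical transcript, in TGFBR3, TGIF1 and ZFYVE9. Counting any contact, 4 sites touched a canonical exon (TGFB2, ID1, TGFB1 and SMURF2). Within 5 kb of a protein-coding TSS lay 0, 2, 1 and 0 member peaks in the 4 lists, where the share over all peaks was 1.93, 7.38, 3.93 and 6.34%. These were the peaks of SMAD7, ID1 and SMAD9.

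Member peaks were then placed within the scores of each list. In replicate 1 their lowest, median and highest scores were 50.4, 59.5 and 85.5 (Input) and 50.3, 61.9 and 95.8 (LacZ). In replicate 2 they were 50.5, 56.7 and 96.9 (Input). The medians over all peaks of these lists were 56.1, 58.0 and 57.7, and 10 of 14, 11 of 18 and 9 of 24 member peaks were at or above them. The TGIF1 score of 50.6 against LacZ in replicate 2 ranked 341 of 363, below the list median of 56.0. Peaks at LINC01767, the gene of the pulled-down RNA, had scores of 1008, 1467, 1580 and 936 in the 4 lists, which was 11.8, 15.3, 16.3 and 18.5 times the highest member score. In the Input lists of replicates 1 and 2 the highest score of any peak was 1510 and 1670, above that at LINC01767.

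The member peaks with the highest rank within their list were those of TGIF1 (Input, replicate 2, rank 358, the top 2.13%), ACVR1B (LacZ, replicate 1, rank 282, the top 2.74%) and LTBP1 (Input, replicate 1, rank 485, the top 5.2%). The LTBP1 peak at chr2:33180215-33180522 followed in replicate 2 against Input (the top 11.5%), and then the intron 3 peak of ACVR1B (the top 16.3%).

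**Figure D5:**
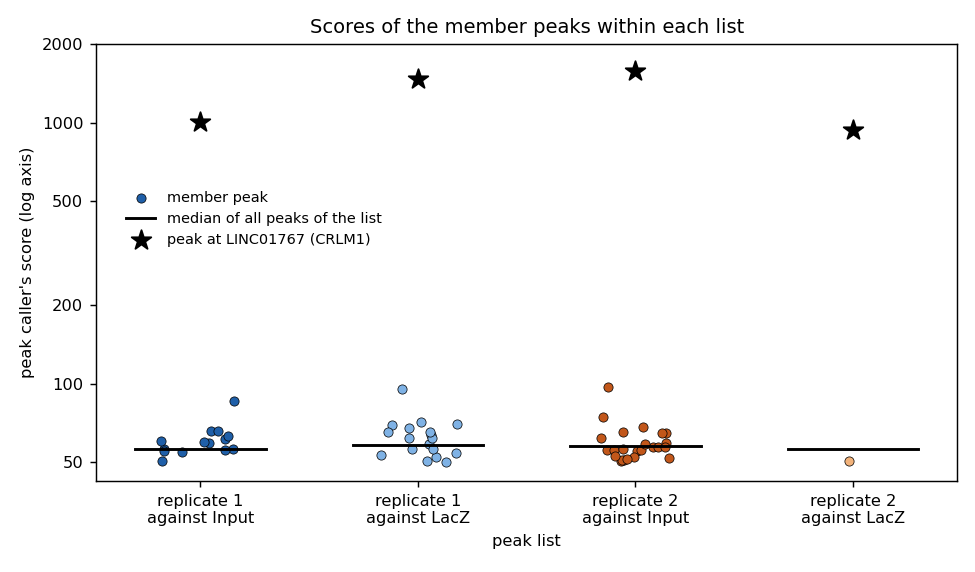
Score of each member peak (points, log axis) in the 4 lists, with the median of all peaks of the list as a line and the peak at LINC01767 as a star. Member peaks lie between 50.3 and 96.9, around the line, and the star lies 11.8 to 18.5 times above the highest of them.

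Several features that the choice of genes did not use were read from the peak sequences. Median GC content of member peaks was 37.3, 43.8, 40.0 and 39.3% in the 4 lists, beside 38.0, 41.3, 38.8 and 39.9% over all peaks, and the ID1 peak had the highest value, 62.5%. The letters GTCTAGAC, the palindrome to which SMAD3 and SMAD4 bind, were in 0 member peaks and in 0.161, 0.194, 0.209 and 0% of all peaks. The letters GGCGCC, of the GC-rich kind that SMADs also bind, were in 1 of 14, 2 of 18, 2 of 24 and 1 of 1 member peaks. Their 4 sites were in LTBP1, ID1, SMURF1 and TGIF1. Of all peaks, 1.22, 2.94, 1.7 and 4.13% held these letters. The letters CCCTCCC, of the C-rich kind that hnRNPK binds, were in 1 member peak, in BMPR1B (replicate 2 against Input), and in 5.5, 7.92, 6.34 and 7.71% of all peaks. All were searched on both strands without regard to overlap with each other, and a match in letters does not show binding.

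Letters typical of repeats were searched as well. The letters GGATTACAG, typical of Alu elements and searched after the sequences had been seen, were in 4 of 14, 4 of 18, 8 of 24 and 1 of 1 member peaks. With both strands searched, these peaks made 13 of the 49 sites (26.5%). Over all peaks, in and outside genes, the share was 8.19, 13.1, 10.3 and 16.0%. The share over peaks in protein-coding loci is not given, so the gap is not read as a trait of the members. The 13 sites were in ACVR1B, ACVR2A, TGFBR3 (2 sites), LTBP1 (2 sites), SKIL, BMPR2, SMURF1, SMURF2, ZFYVE9, SKI and TGIF1.

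No member peak matched any of the 9 CRLM1 probe sequences, while 3, 1, 1 and 2 peaks did over the 4 lists. A match to LINC01767 exons, merged over all its annotated transcripts, was found for 5 of 14, 4 of 18, 6 of 24 and 0 of 1 member peaks. Over all peaks, in and outside genes, the share was 9.8, 15.2, 12.3 and 22.6%. Here too the share over peaks in protein-coding loci is not given. The 11 member sites with a match were in ACVR1B, ACVR2A, TGFBR3 (2 sites), LTBP1 (2 sites), BMPR1A, BMPR2, SMURF2, ZFYVE9 and SKI. All of them aligned within chr1:56416992-56417110, a stretch of 119 bases present in the longer annotated transcripts and beyond the end, at 56415966, of those with 4 exons. These matches fell in the same merged exon, which begins at the gene start, 56414918, and so also covers introns of the 4-exon transcripts. Alignments covered 26 to 89 columns at 74.2 to 96.2% identity, and 8 of 11 were on the same strand as LINC01767. In ACVR1B, the alignment covered 89 columns at 74.2% identity on the opposite strand, and in LTBP1 75 columns at 78.7% on the same strand. Of the 11 sites, all but those of BMPR1A and of LTBP1 at chr2:33302783-33303024 also held GGATTACAG. The stretch of 119 bases itself does not hold these letters. Whether the matches reflect a shared repeat was not tested. Over all lists, 0 peaks outside LINC01767 had an alignment that began at or before 56415966, the furthest end of the 4-exon transcripts. The study places the end of its CRLM1, also of 4 exons, beyond the gene as annotated here, so these transcripts may differ from its RNA.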

How the data were processed

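ChIRP-seq libraries of HCT116 cells (CRLM1_IP, LacZ and Input, 2 each) were grouped by their labels. According to the methods and labels, Bowtie2 alignment to GRCh38 followed adaptor trimming by cutadapt, and MACS2 was the peak caller. The authors deposited 4 peak lists with a start, an end and a score per peak. The deposited score has no stated scale. Its floor of 50 and the peak names look like those of an older MACS release than the one named. This was not checked, so the caller version was not settled. Coordinates are 1-based. Peaks on chromosomes 1 to 22, X and Y were used (36781), and 151 on other contigs were left out. Peaks of the LacZ pull-down itself were not used here. The lists hold no counts, so depth and precision are unknown.

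Gene models were GENCODE release 44. A locus was the gene body and 5 kb upstream, and 1 shared bp counted as overlap. Peaks were classed by midpoint on the MANE Select transcript. Genes of similar length were the 200 non-member protein-coding genes nearest in locus length. Peaks were aligned to the 9 CRLM1 probes and to LINC01767 exons, merged over all annotated transcripts, with blastn 2.17.0 (word size 11, E of 0.01). Python 3.11.15, pandas 2.3.3, numpy 2.4.6, pysam 0.24.0 and matplotlib 3.10.9 were used. Counting was tested on made-up peaks with known answers. A planned share of repeat-masked bases was not computed, since the reference used carries no repeat marks.

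Members and lists were chosen with earlier results of these data known, so no test over them was run and values are descriptions. Named were all members with a peak and SMAD2, SMAD4, SMAD6, BMP7 and SMURF2. Full coordinates were given for members called in both replicates against 1 control or against LacZ in replicate 2, for SMAD6, BMP7 and SMURF2, and for the 5 member peaks of highest rank. Of these peaks, 1 had its sequence printed, and the sequences of the others are not reported here. Coordinates of the SMAD2 neighbour were added after its values were seen. From the wider pathway list, genes called in both replicates against 1 control were named, up to 10. There were 56 alternatives (other upstream lengths, midpoints, score thresholds, numbers of neighbours and leaving out a replicate).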

Additional observations from a re-analysis of the deposited data

How the results depend on the processing

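Of 56 alternatives, 41 left the value within 1.5 times of that reported, among them those with 10 kb upstream, with the peak midpoint inside the locus, and with 50 or 500 neighbours in length. With 10 kb upstream, 10, 11, 16 and 1 members were called in the 4 lists (18.2, 20.0, 29.1 and 1.82%, beside 13.9, 21.8, 24.0 and 1.12% of protein-coding genes). Score thresholds lowered the counts of members and of all genes. With scores at or above the list median, 6, 6, 7 and 0 members were called in the 4 lists, with 2.22, 2.44, 2.0 and 0 peaks per Mb. That was 10.9, 10.9, 12.7 and 0% of members, beside 7.84, 11.8, 13.8 and 0.524% of protein-coding genes. Members stayed above all genes in replicate 1 against Input, where without a threshold genes of similar length were above members (16.6% beside 14.5%). Members passed from above to below all genes in replicate 2 against Input, and in its LacZ list with the loss of TGIF1. At this threshold 3 members were called in both replicates against Input. With scores of at least 60, 4, 6, 6 and 0 members were called in the 4 lists (7.27, 10.9, 10.9 and 0%, beside 5.69, 10.1, 11.7 and 0.334% of protein-coding genes) and 1 in both replicates against Input. The share of protein-coding genes called in both replicates is not given at either threshold. The falls to 3 and to 1 members can therefore not be set beside that of all genes. Shares of genes of similar length are not given at these thresholds either. Leaving out a replicate turns the count of both replicates into that of the other, so it ranged from 8 to 15 against Input and from 1 to 11 against LacZ, where 1 is the list without replicate 1 and 11 the list without replicate 2. No paired analysis was possible because the results come from no test, and each list already sets a pull-down against the control of its own replicate number. The files give neither depth nor enrichment, so weak peaks cannot be graded beyond their score, and the spread of a count rests on 2 replicates.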

Other observations

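Beyond the 55 members, 84 other genes of the TGF-β and BMP pathways, including further ligand traps, SMAD cofactors and enzymes that modify SMADs, were counted in the same way. In the 4 lists, in the same order as above, 13, 20, 21 and 2 of them had a peak, or 15.5, 23.8, 25.0 and 2.38%. Genes of similar length gave 16.5, 24.0, 27.1 and 1.37%. In both replicates against Input, 8 had a peak, beside 8.98 from genes of similar length.

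These 8 were CREBBP (a histone acetyltransferase that SMADs recruit), RUNX1 (a SMAD-binding transcription factor), FSTL5, NEO1 (a co-receptor of the BMP family), BMPER (a secreted BMP regulator), PPM1A (a SMAD phosphatase), TRIM33 (a SMAD4 ubiquitin ligase) and USP15 (a deubiquitinase). Most have long loci, up to 1220 kb for RUNX1, which had 10 peaks in replicate 2 against Input, and the shortest was PPM1A with 58.3 kb. In both replicates against LacZ, 1 of the 84 had a peak (1.19%), beside 0.559% of protein-coding genes and 0.792% of genes of similar length. It was SPTBN1, which encodes a spectrin that acts as a SMAD adaptor, with 1 peak in each replicate. No member did, where genes of similar length gave 0.375 members.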
